A study of Mus musculus with 52 samples.

Results

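The genes described here encode the 4 classical families of guidance cues and their receptors: semaphorins of classes 3 to 7 with plexins and neuropilins, Slits with Robo receptors, netrins with Unc5 receptors, and ephrins with Eph receptors. Members were chosen by gene symbol among protein-coding genes of the deposited table, with no use of measured values, and 67 of 27525 genes qualified. They comprised 20 semaphorins, 9 plexins, 2 neuropilins, 3 Slits, 4 Robo receptors, 4 netrins, 4 Unc5 receptors, 8 ephrins and 13 Eph receptors. Bulk poly(A) RNA-seq was performed on 32 subcutaneous tumors, 8 in each of 4 groups, and each tumor gave 1 library. The tumors grew from 1 injected KPC pancreatic cancer cell line in male C57BL/6NHsd mice of 8 to 10 weeks, and were collected on day 14 after treatment began. KPC cells come from a pancreatic tumor of a genetically engineered mouse in which Cre is driven by Pdx1, and tumors of every group grew from them. Untreated tumors, labelled control, were given neither agent. ADU-S100 tumors received 1 intratumoral dose of 2 µg of this cyclic dinucleotide, which activates STING, an adaptor that responds to cyclic dinucleotides made on sensing of cytosolic DNA. Anti-LTbR tumors received 4 intraperitoneal doses of 100 µg of an agonistic antibody to the lymphotoxin β receptor, a receptor of the tumor necrosis factor family that signals through NF-κB. Combination tumors received both agents. By their labels all tumors came from a single experiment with 1 line, so p-values measure the spread between tumors of that experiment. The paper's legend gives 1 experiment for expression levels, but also says that independent experiments were combined. Whether each tumor came from a different mouse is not given.

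Guidance cues were first described in the growing nervous system, where they attract or repel axons through receptors that act on the cytoskeleton. The same families are used outside it. Semaphorins bind plexins, with neuropilins as co-receptors for most secreted class 3 members, Slits bind Robo receptors, and netrins bind Unc5 receptors and Dcc. Ephrins are anchored to the membrane and signal to Eph receptors on touching cells. In solid tumors and their stroma these genes are known from blood and lymphatic vessels, epithelial tumor cells, fibroblasts, nerves and immune cells, so a bulk value sums over many sources.

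Recovered read totals were alike in the 4 groups, from 12762453 to 15591986 reads per library, with group medians between 14831778 and 15222570. No library pair agreed within sampling noise. Values are normalized counts: the authors scaled the estimated reads of each library by a single factor. The epithelial tumor markers were present in every library, with a summed normalized count of 20162 to 34058 in untreated and 8344 to 17611 in combination tumors. The summed level of 10 blood endothelial markers was 1765 to 2570 in untreated and 3474 to 4772 in combination tumors, and that of 6 fibroblast markers 59148 to 94510 and 101420 to 374299. In combination versus untreated tumors, 10 of 10 blood endothelial, 5 of 5 lymphatic endothelial, 6 of 6 fibroblast and 5 of 5 T cell markers were higher, and 5 of 8 epithelial markers were lower. Of the other lists, 4 of 6 mural cell, 3 of 4 B cell and 3 of 5 macrophage markers and the leukocyte marker Ptprc were higher, Schwann and neural markers split with 4 higher and 3 lower of 7 tested, and 0 of 4 skeletal muscle, 0 of 3 adipocyte and 0 of 4 keratinocyte markers passed the test. Their part in the results on guidance genes was not tested, and in bulk tissue fewer cells of a type and less RNA per cell cannot be told apart. The markers of skeletal muscle and of keratinocytes varied between single tumors in every group and are given below beside some of the members.

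Combination treatment was accompanied by changes in most guidance genes that could be tested, in both directions. Of 67 members, 60 passed the filter on low values in combination versus untreated tumors, and 25 were higher and 16 lower at an adjusted p under 0.05 (limma, Benjamini-Hochberg over all genes tested, two-sided). These were 41.7% and 26.7% of the members tested. Over all 16909 genes tested, 19.6% were higher and 23.6% lower, so the share of members lower was close to that of all genes. With a 2-fold change required as well, 8 members were higher and 2 lower, where the background was 5.16% and 0.952%. For 9 members every combination tumor lay above every untreated tumor, and for 6 every combination tumor lay below, against 4.64% and 6.04% of all genes tested. The median log2 fold change was 0.08 over the 60 members and −0.02 over all genes tested. The 7 members that did not pass the filter were Epha5, Epha8, Epha10, Robo3, Unc5d, Ntn5 and Sema5b. Using only libraries low in skeletal muscle markers left 21 members higher and 12 lower (background 11.8% and 8.9%), and using only those high in them left 12 and 6 (background 5.93% and 6.02%).

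Anti-LTbR alone was accompanied by fewer changes. Of 57 members tested, 12 were higher and 9 lower, with a background of 7.21% and 8.1% of 16691 genes. Of these 21 members, only Sema3c, which was lower, passed the 2-fold requirement as well (background 0.653% higher and 0.383% lower). Using only libraries high in skeletal muscle markers left 2 higher and 0 lower (background 0.18% and 0.157%), and those low in them 0 and 0 (background 0.00567% and 0%). The lower calls with anti-LTbR, such as Sema3c, Slit2, Efnb1, Efnb2 and Ephb6, thus held in neither set, each with fewer tumors. ADU-S100 alone gave no called gene among 16613 tested (0%) with limma, and the lowest adjusted p of the 58 members tested was 0.276. At an unadjusted p under 0.05 in limma there were 2408 of the 16613 genes and 7 of the 58 members. With adjusted p, edgeR called 1 gene and 0 members, and DESeq2 called 57 genes and 2 members. Against ADU-S100 tumors, combination tumors had 22 members higher and 18 lower of 59 tested (background 20.2% and 26%). Against anti-LTbR tumors they had 17 higher and 16 lower of 60 tested (background 11.3% and 15.3%). The lower count was 10 of 55 with edgeR and 8 of 55 with edgeR on library totals, where the share of all genes lower was 11.3% and 11.7%. Recovered reads lack 5 members, among them Sema7a, which limma called lower here. In libraries above 14000000 recovered reads the counts were 8 higher and 6 lower of 60 (4.35% and 4.19% of all genes). The comparisons with untreated tumors share the same 8 control tumors, and those of the combination share the same 8 combination tumors.

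The interaction asks whether the difference between anti-LTbR and no antibody was itself different in the presence of ADU-S100. It was fitted over all 32 libraries. Of 61 members tested, 10 had a positive and 12 a negative interaction, with a background of 7.33% and 11% of 17649 genes. Members with a positive term included Slit3, Robo1, Robo4, Ephb2, Epha3 and Sema6a, and members with a negative term included Sema3d, Slit2, Ntn1, Unc5b and Epha2.

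**Figure D1:**
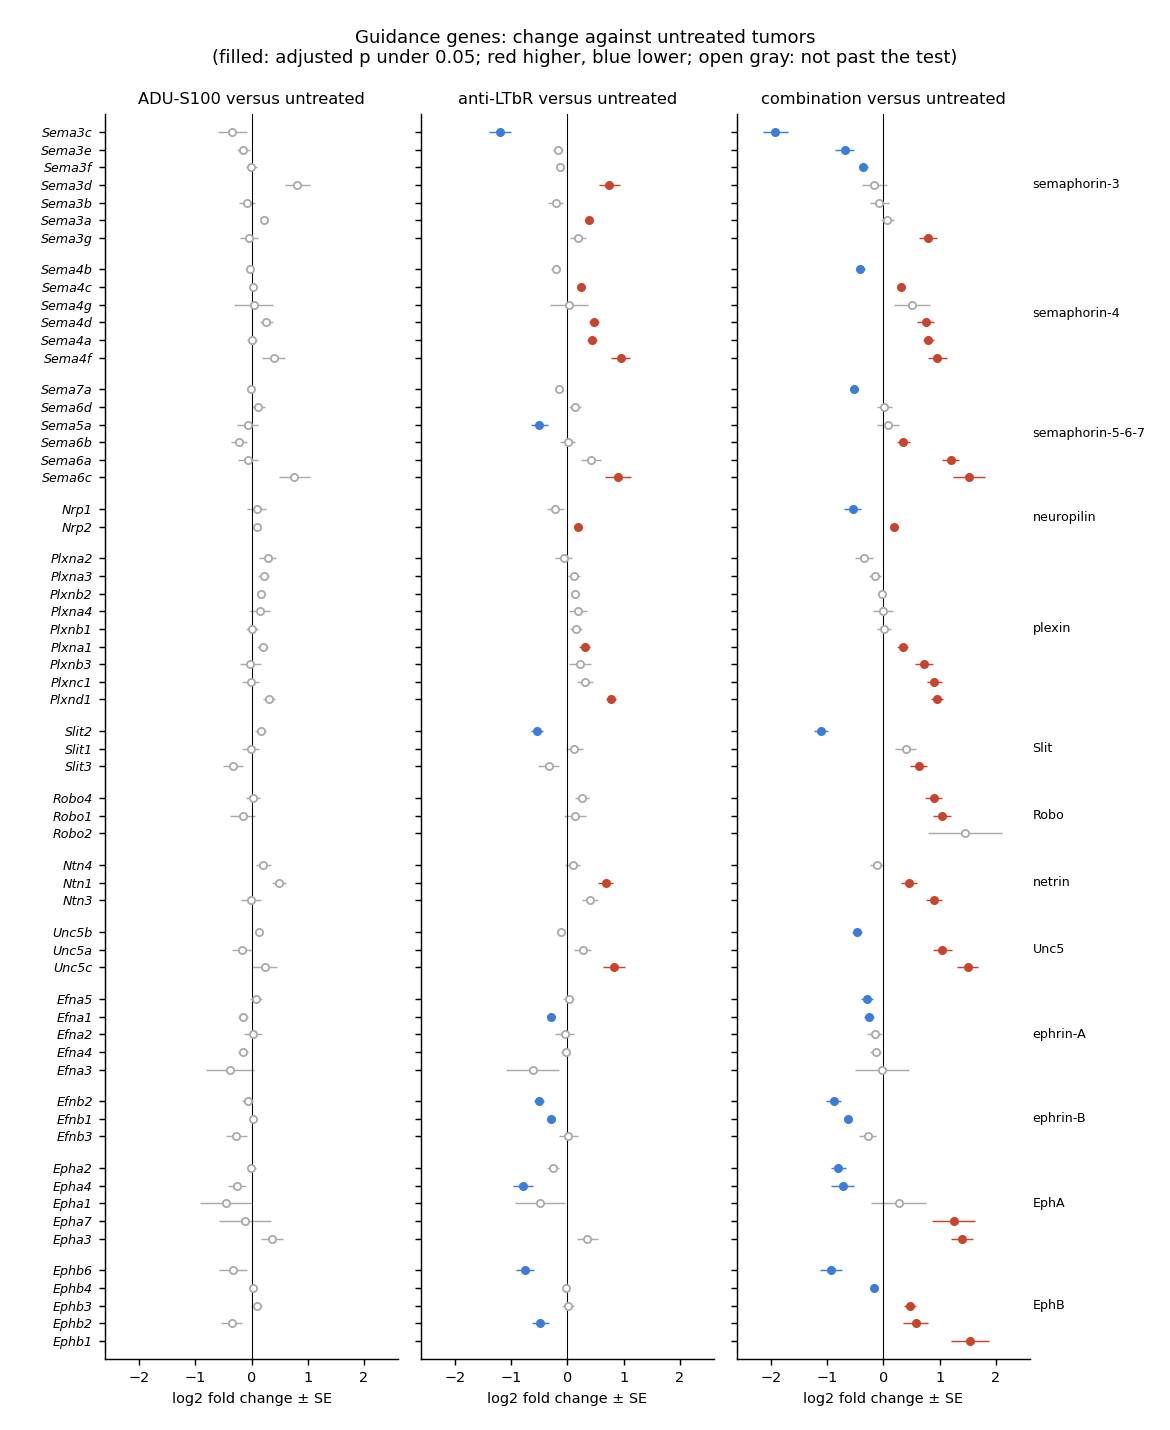
Log2 fold change against untreated tumors (x axis, bars ± SE) of the 60 guidance genes tested in combination versus untreated tumors, grouped by family, for ADU-S100, anti-LTbR and the combination with 8 tumors a group. Filled points passed an adjusted p under 0.05, red higher and blue lower, and open gray points did not, and a member that failed the low-value filter in a comparison has no point there. No point is filled for ADU-S100, 21 are filled for anti-LTbR and 41 for the combination.

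Because members of one family moved in opposite directions, their promoters were searched for short motifs. RefSeq windows of 300 bases, 250 before and 50 after an annotated start (GRCm38.p6), matched 58 of the 67 members by symbol, with 74 windows. The median GC content was 64.3% in member windows and 52.7% in all 32851 windows. The κB consensus, searched on both strands, was found in 7 of 58 members (12.1%) and in 5.14% of all genes with a window. The 7 were Efna2, Ephb1, Ephb2, Sema4a, Sema4b, Sema4c and Sema6c. The interferon-stimulated response element, searched the same way, was found in Plxnc1 and Sema6b, 3.45% of members against 3.99% of all genes. AP-1 (TGANTCA) was found in 5.17% of members (Sema4c, Sema4d and Sema6b) and 8.97% of all genes, ETS (CCGGAAG) in 3.45% (Ephb6 and Plxnb1) and 9.93%, the E-box CACGTG in 8.62% and 8.09%, and the forkhead motif GTAAACA in 0 of 58 members and 4.05% of all genes. By direction in combination versus untreated tumors, κB was found in 5 of 22 higher and 1 of 15 lower members with a window (Sema4b). The interferon element was found in 2 of 22 and 0 of 15, AP-1 in 3 and 0, ETS in 0 and 1, and the E-box in 0 and 2. Most higher members thus had neither κB nor the interferon element, and no link of a motif to direction was tested. A match is only a stretch of letters in this window. The 4 stretches below run from 250 to 21 bases before the start, 5′ to 3′ on the gene's own strand, with matches in capitals: κB in Sema4a (in 1 of its 4 windows) and Ephb2, the interferon element in Plxnc1, and none of the 6 motifs in Slit2. They are shown because Sema4a and Plxnc1 were higher, and Slit2 lower, in every combination tumor than in any untreated tumor, and because Ephb2 had the largest positive interaction among members that passed that test.
Sema4a (chr3:88459122-88459351, minus strand): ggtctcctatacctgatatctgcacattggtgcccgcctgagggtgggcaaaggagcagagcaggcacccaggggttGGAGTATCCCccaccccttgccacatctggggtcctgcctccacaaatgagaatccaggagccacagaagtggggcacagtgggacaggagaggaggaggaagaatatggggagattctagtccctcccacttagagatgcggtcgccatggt
Ephb2 (chr4:136836033-136836262, minus strand): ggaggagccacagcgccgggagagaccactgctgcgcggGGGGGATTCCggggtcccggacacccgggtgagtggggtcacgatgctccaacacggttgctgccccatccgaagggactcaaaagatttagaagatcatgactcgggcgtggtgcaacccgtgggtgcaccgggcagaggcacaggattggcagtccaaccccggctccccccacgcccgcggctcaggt
Plxnc1 (chr10:94944866-94945095, minus strand): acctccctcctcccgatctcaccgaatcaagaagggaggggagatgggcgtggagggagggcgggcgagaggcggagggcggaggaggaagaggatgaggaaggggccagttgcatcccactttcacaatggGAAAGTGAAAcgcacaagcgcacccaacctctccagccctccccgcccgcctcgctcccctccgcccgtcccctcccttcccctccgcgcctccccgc
Slit2 (chr5:47982905-47983134, plus strand): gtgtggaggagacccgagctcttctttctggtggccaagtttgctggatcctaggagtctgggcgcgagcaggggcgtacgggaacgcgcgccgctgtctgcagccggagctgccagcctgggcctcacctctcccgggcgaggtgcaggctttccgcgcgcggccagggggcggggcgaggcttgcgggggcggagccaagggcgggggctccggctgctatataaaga

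Among class 3 semaphorins, the secreted ligands of neuropilin and plexin complexes, 1 member was higher (Sema3g), 3 were lower (Sema3c, Sema3e and Sema3f) and 3 did not pass the test in combination versus untreated tumors. Of all genes tested, 19.6% were higher and 23.6% lower. Sema3c, a secreted semaphorin known for its role in outflow tract development, had the largest decrease of all members. The normalized count of Sema3c was 1018 at the lowest, 1974 at the median and 2811 at the highest in untreated tumors, 801, 1420 and 2616 in ADU-S100 tumors, 596, 809 and 990 in anti-LTbR tumors, and 327, 484 and 773 in combination tumors. Every anti-LTbR and every combination tumor lay below every untreated tumor, whereas ADU-S100 tumors spread over nearly the untreated range. Sema3c fell by 1.92 ± 0.22 on the log2 scale in combination versus untreated tumors (SE, n = 8 per group, adjusted p = 1.72e-05, limma), by 1.19 ± 0.19 with anti-LTbR alone (adjusted p = 0.00182), and by 0.72 ± 0.15 from anti-LTbR to combination tumors (adjusted p = 0.00324). Its interaction did not pass the test (−0.38 ± 0.31, adjusted p = 0.418).

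Sema3d, which acts on vessels and neural crest cells during development, was highest in the single-agent groups. Its normalized count was 463, 788 and 1179 in untreated tumors, 729, 1579 and 1912 with ADU-S100, 1001, 1329 and 1879 with anti-LTbR and 370, 732 and 1125 with both (lowest, median and highest). The medians of both single-agent groups were above the other two, and the combination range lay almost on the untreated range. The change was 0.75 ± 0.18 on the log2 scale with anti-LTbR (adjusted p = 0.0144) and 0.82 ± 0.23 with ADU-S100, which did not pass the test (adjusted p = 0.276), and the combination differed from untreated by −0.16 ± 0.23 (adjusted p = 0.607). The call with anti-LTbR was lost within libraries high in skeletal muscle markers (0.37, adjusted p = 0.18) and within those low in them (0.73, adjusted p = 0.22, with 2 anti-LTbR tumors). The interaction of Sema3d, −1.72 ± 0.31, had the largest size among members that passed that test (adjusted p = 0.000682).

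Sema3a, the prototype repellent of this class, showed a smaller form of this pattern. Its normalized count was 448 to 573 in untreated and 628 to 733 in anti-LTbR tumors, with no overlap (0.38 ± 0.06, adjusted p = 0.00087), and 388 to 714 in combination tumors (0.07 ± 0.11, adjusted p = 0.622). The interaction was −0.53 ± 0.13 (adjusted p = 0.00511). In the mouse genome Sema3d, Sema3a, Sema3e and Sema3c all lie on chromosome 5, as does Slit2 (chr5:47983138-48307733, GRCm38). In combination versus untreated tumors Sema3c and Sema3e (−0.69 ± 0.18) were lower among these semaphorins, while Sema3a and Sema3d did not pass the test. Sema3f fell by 0.36 ± 0.08, Sema3g, which is expressed by endothelium, was higher by 0.79 ± 0.16, and Sema3b did not pass the test (−0.08 ± 0.17).

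Class 4 semaphorins span the membrane, and Sema4a and Sema4d also act on immune cells. In combination versus untreated tumors 4 of 6 were higher, Sema4b was lower by 0.41 ± 0.08 and Sema4g did not pass the test. Of all genes tested, 19.6% were higher and 23.6% lower, and the class was not tested against them. Sema4a, whose promoter is printed above, had a normalized count of 476, 574 and 755 (lowest, median, highest) in untreated, 501, 614 and 712 in ADU-S100, 703, 769 and 976 in anti-LTbR and 856, 1056 and 1299 in combination tumors. The combination tumors were all above the untreated and the ADU-S100 tumors. Sema4a rose by 0.80 ± 0.10 on the log2 scale in combination versus untreated tumors (adjusted p = 2.91e-05), by 0.43 ± 0.09 with anti-LTbR (adjusted p = 0.0083), and by 0.37 ± 0.09 from anti-LTbR to combination (adjusted p = 0.0102).

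Sema4d, the ligand of Plxnb1, was 539 to 941 in untreated (median 787), 723 to 1134 in ADU-S100 (median 880), 951 to 1132 in anti-LTbR (median 1037) and 924 to 1658 in combination tumors (median 1343). It was higher with anti-LTbR by 0.47 ± 0.10 (adjusted p = 0.0067), with no overlap, and with the combination by 0.75 ± 0.14 (adjusted p = 0.000605). Plxnb1 itself differed by 0.01 ± 0.12 and did not pass the test. Sema4f was 37.3 to 89.6 in untreated, 84.7 to 143 in anti-LTbR and 81.7 to 130 in combination tumors, and was higher by 0.94 ± 0.17 with anti-LTbR (adjusted p = 0.00316) and by 0.96 ± 0.17 with the combination (adjusted p = 0.000368). For Sema4f the 2 groups that received the antibody differed by 0.02 ± 0.13 (adjusted p = 0.944). Sema4c was higher by 0.31 ± 0.07 in combination tumors.

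Of classes 5 to 7, Sema6a, Sema6b and Sema6c were higher, Sema7a was lower, and Sema5a and Sema6d did not pass the test in combination versus untreated tumors. Sema6a, a transmembrane ligand of class A plexins, had a normalized count of 38.9, 73.6 and 91.7 in untreated, 41.2, 65 and 81.2 in ADU-S100, 71.2, 83.5 and 141 in anti-LTbR and 139, 157 and 173 in combination tumors. The combination tumors were all above the untreated and ADU-S100 tumors and overlapped the anti-LTbR group only at its highest tumor. Sema6a rose by 1.20 ± 0.15 on the log2 scale (adjusted p = 2.9e-05), and its interaction was 0.84 ± 0.21 (adjusted p = 0.00722).

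Sema7a, a glycolipid-anchored semaphorin that binds Plxnc1 and β1 integrins, was the most abundant member per length of transcript, with a mean of 2297 normalized counts per kb of exon over the 4 groups. It ran from 7443 to 9133 in untreated (median 8713), from 7420 to 9599 in ADU-S100 (median 8328), from 6553 to 8376 in anti-LTbR (median 7416) and from 4833 to 6647 with both agents (median 6013). All combination tumors were below all untreated tumors. Sema7a fell by 0.52 ± 0.07 on the log2 scale (adjusted p = 5.82e-05), with an interaction of −0.37 ± 0.10 (adjusted p = 0.00752). Sema5b, which did not pass the filter, had means of 3.15 in untreated and 10.7 in combination tumors.

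Plexins are the receptors that signal for semaphorins. In combination versus untreated tumors 4 of 9 were higher (Plxnd1, Plxnc1, Plxnb3 and Plxna1), 5 did not pass the test and 0 were lower. Of all genes tested, 19.6% were higher and 23.6% lower, and the median log2 fold change of the plexins was 0.005. Plxnd1, known as a receptor of Sema3e in vessels, had a normalized count of 1738, 2222 and 2728 in untreated, 2060, 2884 and 3027 in ADU-S100, 3057, 3776 and 4091 in anti-LTbR and 3288, 4248 and 5263 in combination tumors. The anti-LTbR and the combination tumors were all above the untreated tumors. Plxnd1 rose by 0.95 ± 0.11 on the log2 scale with the combination (adjusted p = 2.05e-05) and by 0.77 ± 0.09 with anti-LTbR (adjusted p = 0.000214), and these 2 treated groups differed by 0.18 ± 0.10 (adjusted p = 0.184). Its ligand gene Sema3e was 266 to 432 in untreated and 131 to 368 in combination tumors, so ligand and receptor moved in opposite directions in this comparison.

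Plxnc1, the receptor of Sema7a, was 90.4 to 188 in untreated (median 143), 109 to 206 in ADU-S100 (median 137), 118 to 217 in anti-LTbR (median 189) and 210 to 322 in combination tumors (median 270). It rose by 0.91 ± 0.13 (adjusted p = 9.11e-05) with an interaction of 0.61 ± 0.19 (adjusted p = 0.0278), while its ligand gene Sema7a fell. Plxnb2, the most abundant plexin per kb of exon (985 normalized counts per kb), was 6177 to 8263 in untreated and 6272 to 7901 in combination tumors and did not pass the test (−0.02 ± 0.07, adjusted p = 0.817). Its interaction passed (−0.33 ± 0.08, adjusted p = 0.00653), with medians of 8260 and 7870 in the ADU-S100 and anti-LTbR groups. Plxna1 was higher by 0.34 ± 0.10 and Plxnb3, at a mean of 16.2 in untreated tumors, by 0.72 ± 0.16.

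The neuropilins moved apart. Nrp1, a co-receptor of class 3 semaphorins and of vascular endothelial growth factor, had a normalized count of 806, 1493 and 1995 in untreated, 1076, 1425 and 2149 in ADU-S100, 961, 1151 and 1434 in anti-LTbR and 766, 949 and 1221 in combination tumors. Its groups overlapped, and it fell by 0.54 ± 0.16 (adjusted p = 0.00977). The call on Nrp1 was lost in libraries above 14000000 reads (−0.44, adjusted p = 0.0661) and in those high in skeletal muscle markers (−0.38, adjusted p = 0.324). Nrp2, whose product serves lymphatic endothelium and class 3 semaphorins, was higher by 0.19 ± 0.07 with the combination (adjusted p = 0.045) and by 0.18 ± 0.06 with anti-LTbR (adjusted p = 0.049), on untreated values of 2790 to 3579. The calls on Nrp2 rest on changes close to the threshold.

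**Figure D2:**
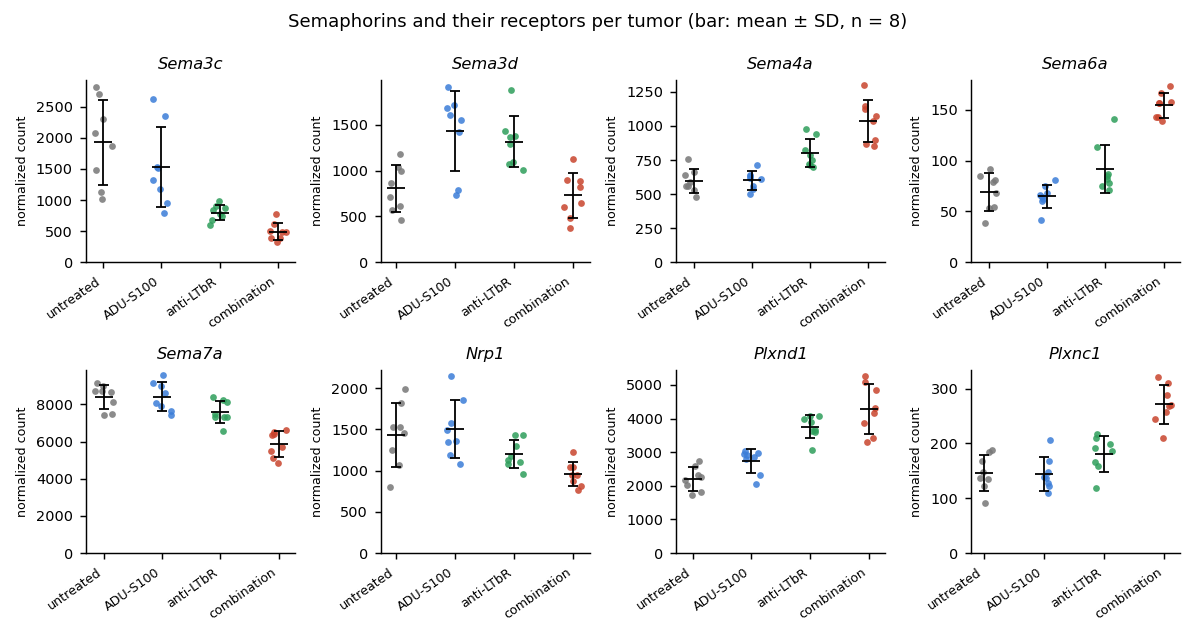
Normalized counts per tumor (y axis from 0) of 4 groups of 8 tumors for 5 semaphorins, Nrp1 and 2 plexins, with bars for the mean ± SD. Sema3c and Sema7a are lowest and Sema4a, Sema6a, Plxnd1 and Plxnc1 highest in combination tumors, while Sema3d is high in the ADU-S100 and anti-LTbR groups only.

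For Slits and Robo receptors, the ligand Slit2 fell while the receptors Robo1 and Robo4 rose. Slit2 (its upstream sequence is printed above) is a large secreted ligand that repels axons and acts on endothelium. Its normalized count was 1062, 1318 and 1707 in untreated, 1276, 1532 and 1633 in ADU-S100, 744, 944 and 1088 in anti-LTbR and 500, 590 and 841 in combination tumors. All combination tumors lay below all untreated and all ADU-S100 tumors, and the anti-LTbR tumors lay between with a small overlap on either side. Slit2 fell by 1.10 ± 0.12 on the log2 scale with the combination (adjusted p = 1.32e-05) and by 0.54 ± 0.11 with anti-LTbR (adjusted p = 0.00513), and its interaction was −0.73 ± 0.15 (adjusted p = 0.00151).

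Slit3, a paralog made by vascular and mesenchymal cells, went the other way. It ran from 600 to 1165 in untreated (median 829), from 464 to 1098 in ADU-S100 (median 627), from 432 to 1114 in anti-LTbR (median 707) and from 864 to 1621 with both agents (median 1285). Slit3 was higher in the combination than in untreated tumors by 0.63 ± 0.15 (adjusted p = 0.00346), while both single-agent differences from untreated were −0.33 ± 0.18 and did not pass the test (adjusted p = 0.383 for ADU-S100 and 0.209 for anti-LTbR). Its interaction was 1.29 ± 0.27 (adjusted p = 0.00183). Slit1, at a mean of 76.8 in untreated tumors, did not pass the test (0.40 ± 0.18, adjusted p = 0.092).

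Robo1 and Robo4 behaved alike. Robo1, a receptor of Slits on neurons, epithelium and other cells, was 50.1, 76.1 and 115 in untreated, 45.8, 62.1 and 131 in ADU-S100, 62.5, 90.5 and 137 in anti-LTbR and 119, 174 and 210 in combination tumors. Robo4, a receptor largely restricted to endothelium (chr9:37401897-37415115, GRCm38), was 59.2, 75.6 and 97.9, then 63.9, 79.5 and 96.9, then 76, 87.6 and 114, and 103, 140 and 218 in the same order. For both genes every combination tumor was above every untreated tumor, and the other 3 groups overlapped.

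Robo1 rose by 1.04 ± 0.16 (adjusted p = 0.000114) and Robo4 by 0.90 ± 0.15 (adjusted p = 0.000222) in combination versus untreated tumors. Their interactions were 1.07 ± 0.29 (adjusted p = 0.0097) and 0.62 ± 0.19 (adjusted p = 0.0216), and with anti-LTbR alone the differences of 0.14 ± 0.20 and 0.25 ± 0.12 did not pass the test (adjusted p = 0.647 and 0.156). The median log2 fold change of the 10 blood endothelial markers in the same comparison was 0.99. Other members described here with vessels or endothelium moved both ways. Plxnd1 (0.95), Sema3g (0.79), Slit3 (0.63) and Nrp2 (0.19) were higher. Slit2 (−1.10), Efnb2 (−0.88), Nrp1 (−0.54), Unc5b (−0.47) and Ephb4 (−0.16) were lower. The part of cell content in these changes was not tested. Robo2 had means of 10.5 and 24.9 in untreated and combination tumors and did not pass the test (1.45 ± 0.65, adjusted p = 0.083), and Robo3 was at or below 6.7 normalized counts in every library.

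Of 4 netrins 3 were tested and 2 were higher in combination versus untreated tumors, and of 4 Unc5 receptors 3 were tested, 2 higher and 1 lower. Of all genes tested in this comparison, 19.6% were higher and 23.6% lower. Ntn1, the netrin that attracts or repels axons according to its receptor, was 1067, 1357 and 2056 in untreated, 1334, 1956 and 2391 in ADU-S100, 1623, 2220 and 2669 in anti-LTbR and 1352, 1988 and 2203 in combination tumors. All 3 treated groups had a higher median than the untreated group, and all ranges overlapped. Ntn1 was higher with anti-LTbR by 0.68 ± 0.13 (adjusted p = 0.00551) and with the combination by 0.46 ± 0.14 (adjusted p = 0.0119), differed by 0.49 ± 0.13 with ADU-S100 without passing the test (adjusted p = 0.276), and had an interaction of −0.71 ± 0.18 (adjusted p = 0.00778). Within libraries high in skeletal muscle markers these 3 calls were lost, at 0.47 with anti-LTbR (adjusted p = 0.114), 0.29 with the combination (adjusted p = 0.126) and −0.42 for the interaction (adjusted p = 0.0666).

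Ntn3 was a low-count member, 13 to 22.4 in untreated, 11 to 23.6 in ADU-S100, 18.5 to 28 in anti-LTbR and 28.6 to 41.5 in combination tumors. The combination tumors stood above all others, and Ntn3 rose by 0.90 ± 0.14 (adjusted p = 0.00015). Because the counts are small and Ntn3 shares exon bases with Tbc1d24 on the same strand (1.74% of its exon length), its value is less certain than those of the abundant members. Genes on the same strand also overlap 1.38% of the exon length of Plxnc1, 1.35% of Sema4a and 0.818% of Nrp1. Ntn4 did not pass the test (−0.12 ± 0.12).

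Unc5c, a netrin receptor that mediates repulsion, was 26.6, 41.1 and 54.5 in untreated, 25, 49.1 and 80.1 in ADU-S100, 40.1, 84.3 and 87.5 in anti-LTbR and 84.3, 110 and 175 in combination tumors. It rose by 1.50 ± 0.19 with the combination (adjusted p = 2.9e-05) and by 0.83 ± 0.20 with anti-LTbR (adjusted p = 0.0144). Unc5a was 25 to 53.6 in untreated and 51.7 to 112 in combination tumors, higher by 1.05 ± 0.17 (adjusted p = 0.000148), with an interaction of 0.95 ± 0.24 (adjusted p = 0.00614). Unc5b, far more abundant and known from endothelial tip cells and epithelium, moved in the opposite direction.

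The normalized count of Unc5b was 5039, 6400 and 6912 in untreated, 5871, 6544 and 7807 in ADU-S100, 5273, 5620 and 6005 in anti-LTbR and 3575, 4488 and 5401 in combination tumors. Unc5b fell by 0.47 ± 0.09 (adjusted p = 0.000511), with an interaction of −0.48 ± 0.11 (adjusted p = 0.00258). Per kb of exon, the mean of Unc5b over the groups was 921 normalized counts, against 297 for Ntn1. Thus 2 of the 3 Unc5 genes tested rose and the most abundant one fell.

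**Figure D3:**
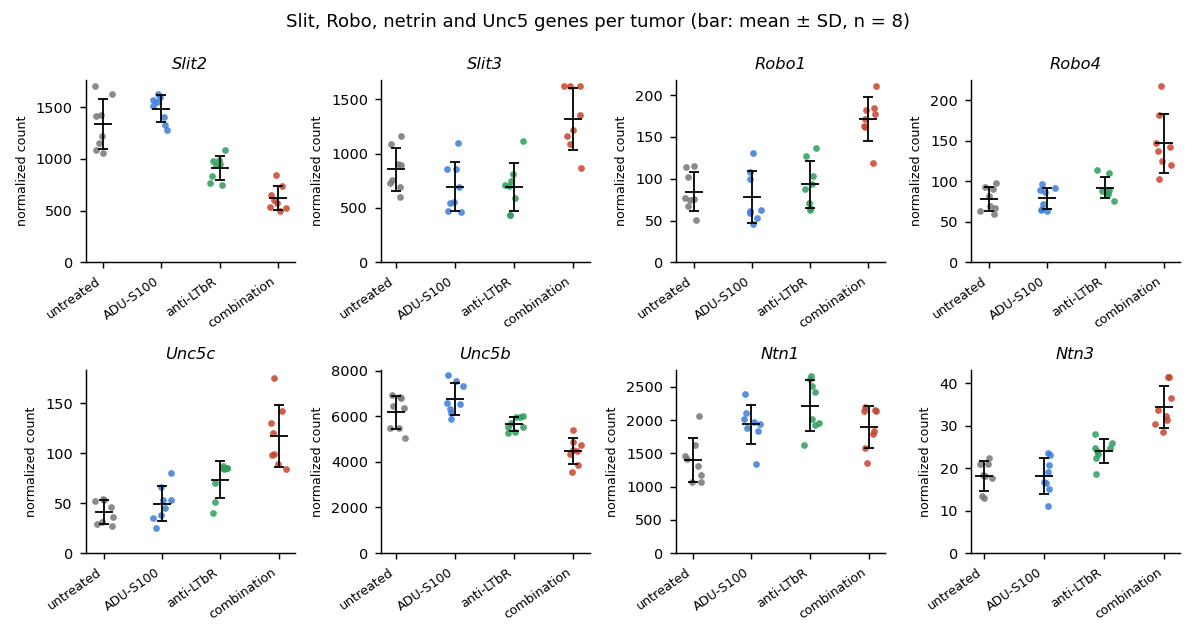
Normalized counts per tumor (y axis from 0) of Slit, Robo, Unc5 and netrin genes in 4 groups of 8 tumors, with bars for the mean ± SD. Slit2 and Unc5b are lowest and Slit3, Robo1, Robo4, Unc5c and Ntn3 highest in combination tumors, while Ntn1 is raised at the median in all 3 treated groups.

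Among ephrins, 4 of 8 were lower and 0 were higher in combination versus untreated tumors, beside 23.6% and 19.6% of all genes tested. The class was not tested against other genes. Efnb1, a transmembrane ephrin, was 1450, 1752 and 2035 in untreated, 1624, 1716 and 2075 in ADU-S100, 1301, 1413 and 1582 in anti-LTbR and 902, 1120 and 1341 in combination tumors. Efnb2, the ephrin that marks arterial endothelium and pairs with Ephb4, was 1045, 1305 and 1569, then 971, 1277 and 1449, then 776, 921 and 1061, and 546, 648 and 971 in the same order. For both genes all combination tumors were below all untreated tumors, and the anti-LTbR medians lay between.

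Efnb1 fell by 0.63 ± 0.08 (adjusted p = 2.57e-05) and Efnb2 by 0.88 ± 0.13 (adjusted p = 9.74e-05) with the combination. With anti-LTbR alone they fell by 0.29 ± 0.07 (adjusted p = 0.0106) and 0.51 ± 0.09 (adjusted p = 0.00284). Ephb4, the partner of Efnb2 on veins, was 1333 to 1588 in untreated and 1156 to 1385 in combination tumors and fell by 0.16 ± 0.05 (adjusted p = 0.00857), the smallest change of a member called in this comparison. The glycolipid-anchored ephrins Efna1 (−0.25 ± 0.09, adjusted p = 0.0269) and Efna5 (−0.29 ± 0.10, adjusted p = 0.0338) were lower, and Efna2, Efna3, Efna4 and Efnb3 did not pass the test. Both calls were close to the threshold: Efna5 did not pass in 5 of 11 other settings (adjusted p up to 0.378) and Efna1 in 3 of 11 (up to 0.26).

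EphA receptors split. Epha2, a receptor abundant on epithelial tumor cells that binds Efna1, was 4340, 5720 and 6584 in untreated, 4730, 5392 and 6075 in ADU-S100, 3462, 4507 and 5456 in anti-LTbR and 2117, 3133 and 3947 in combination tumors. Combination tumors lay below all untreated tumors, and Epha2 fell by 0.80 ± 0.13 (adjusted p = 0.000213), with an interaction of −0.53 ± 0.16 (adjusted p = 0.0207). The median log2 fold change of the 8 epithelial markers in the same comparison was −0.80. Robo1 and Unc5b, also described here with epithelium, moved by 1.04 and −0.47. Epha2 was also the most abundant Eph receptor, with a mean of 991 normalized counts per kb of exon.

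Epha3, a receptor expressed in mesenchymal cells, had a normalized count of 56.1, 120 and 153 in untreated, 97, 133 and 170 in ADU-S100, 110, 133 and 148 in anti-LTbR and 206, 287 and 342 in combination tumors. The combination tumors stood above every other tumor, and Epha3 rose by 1.39 ± 0.19 (adjusted p = 5.94e-05), with an interaction of 0.68 ± 0.23 (adjusted p = 0.0353). The median log2 fold change of the 6 fibroblast markers in the same comparison was 1.53, and the part of cell content in the change of Epha3 was not tested. Epha4 was 112 to 255 in untreated, 83.8 to 175 in anti-LTbR and 84.7 to 189 in combination tumors and was lower with both (−0.79 ± 0.18, adjusted p = 0.0106, and −0.72 ± 0.21, adjusted p = 0.00964). The change of Epha4 with the combination was −0.56 in libraries above 14000000 reads (adjusted p = 0.0736) and −0.48 in those high in skeletal muscle markers (adjusted p = 0.288), and did not pass in either. Epha7 was a low-count member with a mean of 9.81 in untreated and 23.2 in combination tumors (1.25 ± 0.38, adjusted p = 0.0131).

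Of the 5 EphB receptors, 3 were higher and 2 lower in combination versus untreated tumors, beside 19.6% and 23.6% of all genes tested. Ephb2, a receptor of transmembrane ephrins known from the intestinal crypt, was 126, 147 and 253 in untreated, 80.9, 118 and 187 in ADU-S100, 83.6, 101 and 145 in anti-LTbR and 101, 227 and 395 in combination tumors. It was lower with anti-LTbR by 0.48 ± 0.16 (adjusted p = 0.0455) and higher with the combination by 0.58 ± 0.22 (adjusted p = 0.045), both close to the threshold and with overlapping groups. Ephb2 also differed with skeletal muscle markers, as given below. The difference between combination and anti-LTbR tumors was 1.06 ± 0.23 (adjusted p = 0.00348), and the interaction 1.41 ± 0.30 (adjusted p = 0.00198).

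Ephb1, with 1 to 13.8 normalized counts in untreated and 10.6 to 24.1 in combination tumors, rose by 1.54 ± 0.34 (adjusted p = 0.00178), and Ephb3 by 0.48 ± 0.11 (adjusted p = 0.00184). In libraries high in skeletal muscle markers the change was 0.65 for Ephb1 (adjusted p = 0.245) and 0.35 for Ephb3 (adjusted p = 0.181), and neither passed. Ephb6, whose product lacks kinase activity, was 300 to 782 in untreated, 251 to 503 in anti-LTbR and 157 to 417 in combination tumors, and fell by 0.93 ± 0.20 with the combination (adjusted p = 0.00129) and by 0.76 ± 0.17 with anti-LTbR (adjusted p = 0.00914). Among the members called, antisense genes overlap 10.7% of the exon length of Plxna1, 7.27% of Sema4c, 2.72% of Ntn3 and 2.17% of Ephb1. They also overlap 0.816% of Unc5a, 0.711% of Ephb4 and 0.617% of Unc5c. Whether the counting used strand is not given in the sources used here.

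**Figure D4:**
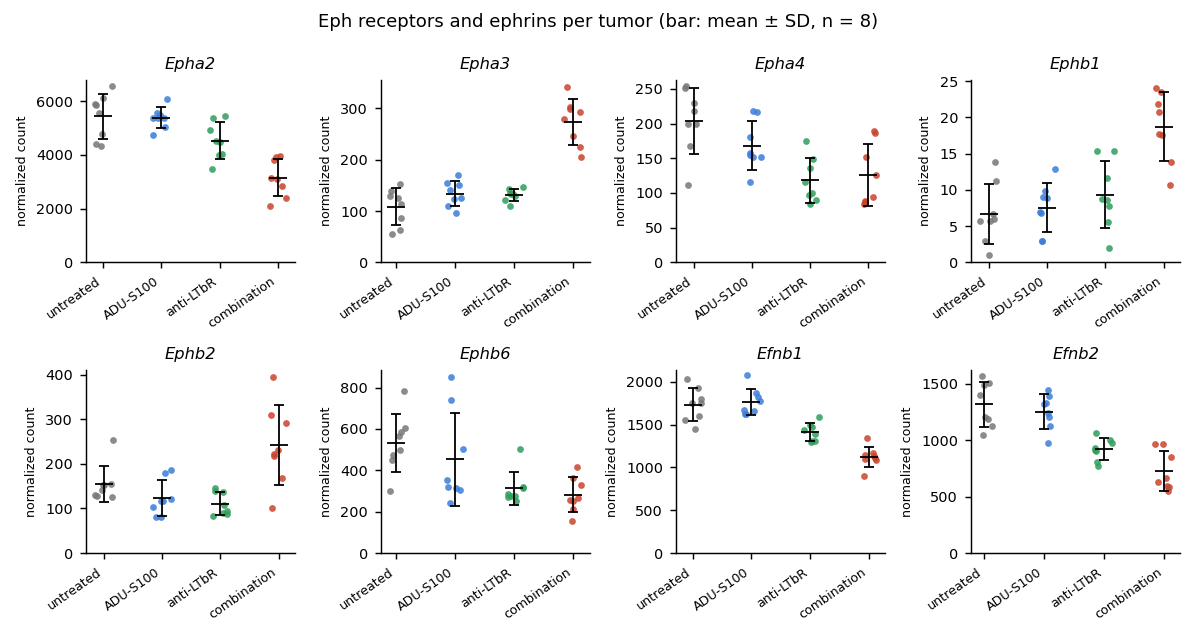
Normalized counts per tumor (y axis from 0) of 6 Eph receptors and 2 ephrins in 4 groups of 8 tumors, with bars for the mean ± SD. Epha2, Efnb1 and Efnb2 are lowest in combination tumors, Epha3 and Ephb1 are highest there, and Ephb2 is lower at the median in both single-agent groups and higher in the combination.

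Some members differed with markers of skeletal muscle or keratinocytes, whose source in these tumors was not tested. The summed level of 4 skeletal muscle markers was at most 11053 normalized counts in 12 tumors and at least 49830 in 20 others. The 12 low tumors comprised 5 untreated, 2 ADU-S100, 2 anti-LTbR and 3 combination tumors. Sema6c, a transmembrane semaphorin, was 42.2 to 68 in the 5 untreated tumors low in these markers and 79.4 to 113 in the 3 high ones, and 79.6 to 86.6 in low and 112 to 175 in high anti-LTbR tumors, while low and high tumors of the other groups overlapped. The combination tumor with the highest muscle sum, 292659, also had the highest Sema6c, 452. Sema6c was 42.2, 61.7 and 113 in untreated and 103, 206 and 452 in combination tumors, and rose by 1.53 ± 0.29 (adjusted p = 0.000541). Within low libraries the change was 1.40 (adjusted p = 0.00869), and within high libraries 1.22 (adjusted p = 0.039). With anti-LTbR alone Sema6c was higher by 0.90 ± 0.23 over all libraries (adjusted p = 0.0177), against 0.50 within high libraries (adjusted p = 0.157) and 0.69 within low ones (adjusted p = 0.256).

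Sema3d and Ntn1 differed with the same markers in some groups. Sema3d was 463 to 869 in low and 999 to 1179 in high untreated tumors, and 729 to 789 in low and 1422 to 1912 in high ADU-S100 tumors, with no overlap. Low and high tumors overlapped with anti-LTbR (1001 to 1092 and 1066 to 1879) and with the combination (370 to 885 and 479 to 1125). Its interaction was −1.48 within high libraries (adjusted p = 0.00227) and −1.11 within low ones (adjusted p = 0.772, with 2 tumors in each single-agent group). Ntn1 was 1067 to 1407 in low and 1453 to 2056 in high untreated tumors, with no overlap, and in the other 3 groups low and high tumors overlapped. Within low libraries its change was 0.39 with the combination (adjusted p = 0.0537) and 0.57 with anti-LTbR (adjusted p = 0.15), and its interaction −0.62 (adjusted p = 0.772), so none of the 3 calls held within either set.

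Ephb2 and Slit3 were higher in tumors low in these markers in some groups. Ephb2 was 179 to 187 in low and 80.9 to 121 in high ADU-S100 tumors, and 293 to 395 in low and 101 to 231 in high combination tumors, with no overlap. Its low and high tumors overlapped in the untreated (129 to 253 and 126 to 152) and the anti-LTbR group (137 to 145 and 83.6 to 139). The change of Ephb2 with the combination was 1.03 within low libraries (adjusted p = 0.012) and 0.40 within high ones (adjusted p = 0.316). With anti-LTbR it was −0.19 within low (adjusted p = 0.73) and −0.46 within high libraries (adjusted p = 0.165), so this call held in neither set.

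Slit3 was 816 to 1114 in low and 432 to 744 in high anti-LTbR tumors, and 1619 to 1621 in low and 864 to 1358 in high combination tumors, with no overlap. Low and high untreated tumors overlapped (689 to 1165 and 600 to 901), and ADU-S100 tumors were 858 to 1098 and 464 to 858. The change of Slit3 with the combination was 0.90 within low libraries (adjusted p = 0.0102) and 0.52 within high ones (adjusted p = 0.0795). The interactions of Slit3 and Ephb2 were 1.36 and 1.27 within high libraries (adjusted p = 0.00515 and 0.00866), and 0.60 and 1.04 within low ones (adjusted p = 0.772 for both). The part of the muscle markers in these results was not tested beyond these fits.

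Epha4 was 199 to 255 in low and 112 to 199 in high untreated tumors, and its low and high tumors overlapped in the other groups. Within high libraries, which hold 3 untreated and 5 combination tumors, the calls in combination versus untreated tumors were also lost, among the members named by rule, for Epha2 (−0.51, adjusted p = 0.0944), Ephb6 (−0.85, adjusted p = 0.101), Epha7 (1.27, adjusted p = 0.142), Unc5b (−0.38, adjusted p = 0.0642) and Sema4f (0.86, adjusted p = 0.0505). The change of Ephb4 was −0.13 in low and −0.14 in high libraries, close to the −0.16 over all libraries, but did not pass with these fewer tumors (adjusted p = 0.192 and 0.179).

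**Figure D5:**
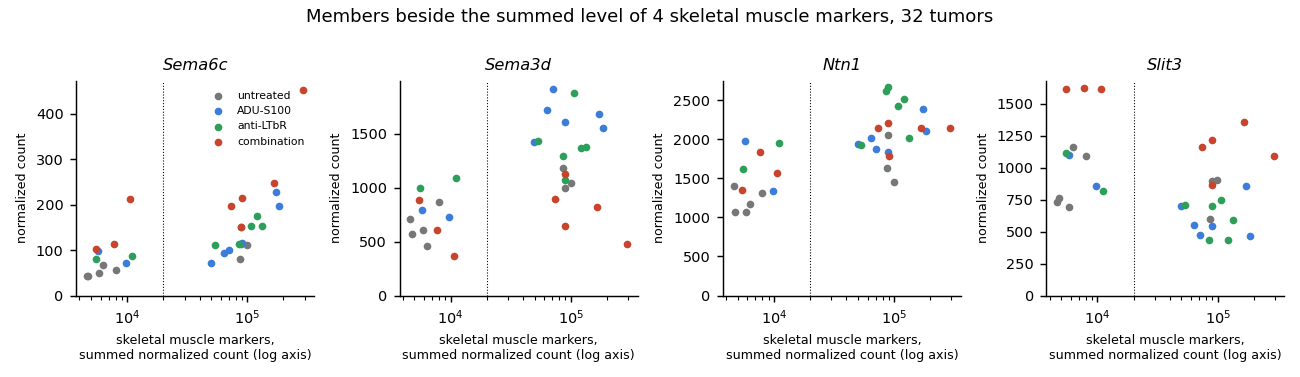
Normalized counts (y axis from 0) of Sema6c, Sema3d, Ntn1 and Slit3 against the summed normalized count of 4 skeletal muscle markers (log x axis), 1 point per tumor, colored by group, with a dotted line at 20000. Untreated tumors right of the line have higher Sema6c, Sema3d and Ntn1 than untreated tumors left of it, and the 3 combination tumors left of the line have the highest Slit3.

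A further 4 members moved with keratinocyte markers, whose summed level was 16468 to 53108 in 10 tumors (4 untreated, 1 ADU-S100, 1 anti-LTbR and 4 combination) and at most 8923 in the other 22. Epha1 was 48.5 to 136 in these 10 tumors and 13.7 to 63.4 in the others. Efna3 was 45.8 to 126 and 10.2 to 65.7, Robo2 was 9.04 to 55.3 and 0 to 17.7, and Sema4g was 45.2 to 85.2 and 12.2 to 70.3. None of the 4 passed the test in combination versus untreated tumors, and their spread within groups was wide, with an SD of 37.7 on a mean of 53 for Epha1 in untreated tumors. These 4 genes were singled out after their values were seen.

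Further lists hold genes that work with these families. Of 21 further receptors and modulators, 16 were tested in combination versus untreated tumors, and 4 were higher and 5 lower, beside 19.6% and 23.6% of all genes tested. Nrcam, a cell adhesion molecule that complexes with neuropilins, fell by 1.72 ± 0.21 (adjusted p = 2.46e-05), and Kdr, the main receptor of vascular endothelial growth factor and a partner of neuropilins, rose by 1.05 ± 0.14 (adjusted p = 4.81e-05). Kdr is also one of the 10 blood endothelial markers, whose median log2 fold change was 0.99. Met, which associates with plexins of class B, fell by 0.62 ± 0.13 (adjusted p = 0.000977). Of 48 intracellular effectors, 46 were tested, 9 were higher and 15 lower, where the same background applies and the share higher was that of all genes. The difference between these lists and the guidance families was not tested.

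Among effectors, Srgap1, a GTPase-activating protein that acts below Robo receptors, rose by 1.07 ± 0.25 (adjusted p = 0.00262), and the actin-binding Ablim3 by 1.26 ± 0.23 (adjusted p = 0.000432). Of their paralogs, Srgap3 (−0.25 ± 0.07, adjusted p = 0.00984) and Ablim1 (−0.19 ± 0.07, adjusted p = 0.0344) were lower, and Srgap2 was higher by 0.16 ± 0.06 (adjusted p = 0.0429). Rhoa, the small GTPase, fell by 0.48 ± 0.06 (adjusted p = 1.82e-05) from a mean of 10574 to 7586. The median log2 fold change was −0.04 over the effectors and −0.09 over the receptors and modulators, beside −0.02 over all genes tested.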

How the data were processed

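Poly(A) RNA-seq libraries were made from 32 tumors of 4 groups of 8 taken from the labels. The submitters' processing notes name cutadapt 1.9, HISAT2, StringTie, STAR, Partek, DESeq2 and edgeR and the build mm39; which of these made each table is not given in the sources used here. The authors deposited a normalized signal per gene and library, estimated reads divided by 1 size factor, for 27525 genes. A larger deposited table (27894 genes, 52 libraries) lacks 1468 of these genes, among them Sema6b, Ephb6, Sema3f, Plxnb2 and Sema7a. They hold 9.63% of the normalized counts, which the recovered totals leave out. Whole reads were recovered from the larger table for the count-based alternatives and the depth. In the low range of positive values that was checked, 100% were whole (tolerance 0.1). A deposited list of the authors' own gene set enrichment scores and p-values was not used. The other 20 libraries belong to another experiment, 15 with contradicting labels, and were not analysed here.

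Genes with a minimum of 10 (filterByExpr) entered a limma 3.58.1 trend fit (R 4.3.3) on log2(value + 1), so that fold changes of low members are understated. Pairwise comparisons used their 16 libraries and the interaction all 32, p-values were two-sided and adjusted by Benjamini-Hochberg over all genes tested, and a gene was called at 0.05. On counts simulated for combination versus untreated (15556 genes tested, 200 changed by 1.5 on the log2 scale), limma recovered 200 with 8 false calls. The simulation gave all genes the same dispersion and changed only genes above a minimum level. Its changes were larger than most reported here, so it does not measure sensitivity or false calls in these data. Alternatives were edgeR 4.0.16 and DESeq2 1.42.0 on recovered reads, library totals, other filters and pseudocounts, deeper libraries, a replicate block and a joint fit; fits within libraries low or high in skeletal muscle markers (limit 20000) were added after the data had been seen. The labels do not say that tumor numbers pair the groups, and not every pair correlated: over the 5 pairwise comparisons the mean correlation of same-numbered tumors' deviations ran from −0.0942 to 0.191, with 2 to 5 of 8 pairs over 0.1 (ADU-S100 versus untreated 0.171, combination versus untreated 0.000673), so they were not treated as paired. Positions and exon lengths are from GENCODE vM21 (GRCm38). The members chosen for full values were those past the 2-fold requirement, at most 2 per direction and class by adjusted p, at most 8 per other comparison by p, and the most abundant of each class. Some of them, such as Epha7, Ephb1 and Unc5a, and all other members carry shorter values. The members, gene lists and tests were chosen with earlier results of these data known.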

Additional observations from a re-analysis of the deposited data

Results flagged for a closer look

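In groups of 8 tumors, 6 values of 36 members stood far from the rest of their group (gap over range above Dixon's critical value), in 6 of 144 groups tested (4.17%), and chance flags about 1 in 20. Low values were 426 for Efna5 in untreated tumor 2, 1329 for Ephb4 in anti-LTbR tumor 4 and 3057 for Plxnd1 in anti-LTbR tumor 8. High values were 253 for Ephb2 in untreated tumor 7, 503 for Ephb6 in anti-LTbR tumor 3 and 452 for Sema6c in combination tumor 6, the tumor with the highest skeletal muscle sum. Each of these values came from a different tumor.

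The effect of anti-LTbR differed with and without ADU-S100, by the interaction term over 32 tumors (limma), for 18 of these 36 members, some of which were named for this term. Of all 61 members tested 22 passed, 10 positive and 12 negative, where the background was 7.33% and 11% of all genes. The term was positive for Ephb2 (1.41), Slit3 (1.29), Robo1 (1.07), Unc5a (0.95), Sema6a (0.84), Epha3 (0.68), Robo4 (0.62) and Plxnc1 (0.61). It was negative for Sema3d (−1.72), Slit2 (−0.73), Ntn1 (−0.71), Epha2 (−0.53), Sema3a (−0.53), Unc5b (−0.48), Sema7a (−0.37), Efnb1 (−0.36), Plxnb2 (−0.33) and Ephb4 (−0.16), all on the log2 scale. Within libraries high in skeletal muscle markers the terms of Ntn1 (−0.42, adjusted p = 0.0666) and Robo4 (0.52, adjusted p = 0.135) did not pass, and within those low in them, with 2 tumors in each single-agent group, none of all genes did (0 called by limma).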

How the results depend on the processing

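Over the named members in combination versus untreated tumors, 350 of the values under other settings kept direction and side of the threshold, 32 kept the direction only (5 of Efna5, 4 each of Nrp2 and Ephb2, 3 of Efna1 and at most 2 of any other), and 3 turned: Plxnb2 was 0.00875 in libraries above 14000000 reads and 0.0315 in libraries high in muscle markers, and Sema3d was 0.0616 in the deeper libraries. With the 2-fold requirement, counts (higher and lower) were 8 and 2 for combination versus untreated (5.16% and 0.952% of all genes), 0 and 1 for anti-LTbR versus untreated (0.653% and 0.383%), 3 and 0 for combination versus anti-LTbR (1.96% and 0.148%) and 7 and 2 for combination versus ADU-S100 (5.46% and 0.714%), and at an FDR of 0.01 there were 5 positive and 8 negative interactions (3.15% and 4.84%). In libraries high in muscle markers, combination versus untreated gave 12 and 6 (5.93% and 6.02% of all genes) and anti-LTbR versus untreated 2 and 0 (0.18% and 0.157%). In libraries low in them, where each single-agent group has 2 tumors, anti-LTbR versus untreated, both comparisons of the combination with a single agent and the interaction gave 0 and 0, with at most 14 of all genes called in a direction. In the deeper libraries combination versus anti-LTbR gave 8 and 6, with 4 positive and 8 negative interactions (4.16% and 4.68% of all genes). Combination versus anti-LTbR gave 10 lower with edgeR and 8 with library totals, and DESeq2 called 2 higher for ADU-S100 (0.299% of all genes). The fits on recovered reads lack 5 members, among them Sema7a, which limma called lower in combination versus anti-LTbR. Over all genes, combination versus anti-LTbR had 1917 higher and 2587 lower with limma and 2074 and 1781 with edgeR, and the interaction 1293 and 1947 against 1476 and 1399. The cause was not tested, beyond the smaller number of tumors where libraries were left out.

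A replicate block moved no count of members by over 1.5 times: combination versus untreated gave 24 higher and 15 lower, and Efna5, Ephb2 and Nrp2 did not pass (adjusted p = 0.072, 0.0517 and 0.0784). Depth limits the members with fewer than about 10 normalized counts, such as Ephb1 and Epha7 in untreated tumors.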
